A study of Mus musculus with 9 samples.

Results

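Mouse stem cells grown in Activin A and BMP4, named ABSC, were compared with cells of the same origin, named ALSC, whose medium held leukaemia inhibitory factor (LIF) beside Activin A. The comparison takes 3 libraries of each, 6 of the 9 libraries in the series, chosen by their labels and not by any measured value. Both cell types descend from AFSC, epiblast stem cell like cells derived from blastocysts of the strain Sv129 x GOF/GFP F1 in Activin A and bFGF, and the other 3 libraries are of AFSC. All media shared a serum-free base with N2 and B27, and AFSC were carried for more than 5 passages in the new medium before they were called ABSC or ALSC. The labels describe ABSC as TSCs like cell, the usual abbreviation of trophoblast stem cells, and ALSC only as an AFSCs-derived stem cell. The protocol gives the LIF recipe under the abbreviation of the BMP4 medium and then gives Activin A and BMP4 for ABSC, so ALSC are taken here to be the LIF cells. ABSC were at passage 25 to 30, ALSC at passage 20 to 25 and AFSC at passage 15 to 20, and a different RNA kit is named for ALSC alone. Medium, passage and possibly the RNA kit therefore cannot be told apart. No label says whether the libraries of a group came from separate cultures or lines, so p-values measure only the spread between these samples, which may be technical.

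BMP4 binds receptor kinases that phosphorylate SMAD1 and SMAD5, which enter the nucleus with SMAD4 and switch on the Id genes, the Msx homeobox genes and the feedback inhibitors Smad6 and Smad7. LIF binds LIFR and gp130 and acts through the kinase JAK on STAT3, whose best known target is its own inhibitor, Socs3. Activin A, present for both cell types, acts through SMAD2 and SMAD3, the route that Nodal uses in the early embryo to set up the anterior primitive streak and the endoderm.

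Total counts over Ensembl genes ran from 19874605 to 20381300 in the ABSC libraries and from 18978651 to 20615592 in the ALSC libraries. Levels are given in CPM, counts scaled to a common library size with TMM factors, with n = 3 libraries per group and SD, and 3 counts correspond to 0.138 to 0.157 CPM. A principal component analysis of the 6 libraries placed ABSC and ALSC apart on the first component (50.1% of the variance), while the second (28.8%) set the 2 libraries numbered 1 apart from those numbered 2 and 3. Genes of the mitochondrial genome held 0.794% of the counts in ABSC 1 and 1.36% to 1.68% in the other 5 libraries. Counts of calls over all genes are therefore also given with the library number as a block and without the 3 libraries numbered 1. For part of the lists of genes by function, either or both of these counts are given as well.

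Of 16178 genes tested, 875 rose and 900 fell in ABSC against ALSC (11% called; 5.41% higher and 5.56% lower), by edgeR's quasi-likelihood test at an adjusted p under 0.05. Rises and falls describe ABSC relative to ALSC and not relative to AFSC, so a rise can also be a lower level in ALSC than in AFSC. The median size of a called change was 0.76 on the log2 scale. At least 2-fold changes were called for 684 genes (4.23%), 223 higher (1.38%) and 461 lower (2.85%), and at least 4-fold changes for 71 and 157. Called changes of less than 2-fold were thus more often rises, and larger ones more often falls. The ABSC and ALSC libraries did not overlap in CPM for 4683 of all genes tested (28.9%), with ABSC above in 13.9% and ALSC above in 15.1%. A lack of overlap for single genes below is to be read against these shares. The replicate block raised the count to 4605 (28.5%; 2298 higher, 2307 lower), and leaving out the libraries numbered 1 raised it to 5225 of 16224 (32.2%; 2729 higher, 2496 lower). Counts for lists from either of these fits are to be read against these larger shares. Of the 1775 genes called, 1771 were also called with the block in the same direction. Leaving out ABSC 2 lowered the count to 846 and leaving out ABSC 3 to 958. Calls held in every fit that left out 1 of the 9 libraries for 410 higher and 351 lower genes. Scaling by library size alone shifted the median of all genes from -0.01 to -0.08 and changed the split from 49.3% to 35.1% higher (615 higher, 1135 lower). Genes named below kept their call in every fit that left out 1 library unless the text beside them says otherwise. Of those named outside the naming rule, after their values were seen, Smad6, Smad7, Zfp36, Aldh1a2, Msn, Myl6, Phlda3 and Dlk1 lost their call without ABSC 2, and all of these except Phlda3 lost it without other libraries too.

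**Figure D1:**
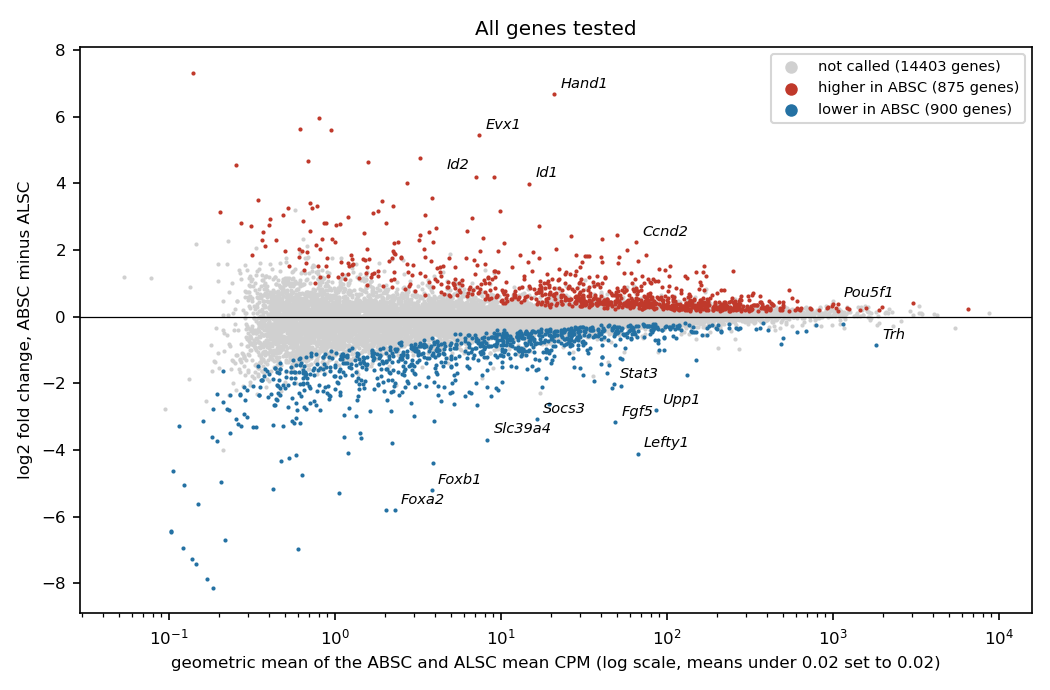
Log2 fold change of ABSC against ALSC (vertical axis) over the geometric mean of both groups' mean CPM (horizontal log axis), 1 point per gene tested. The 875 called genes that were higher are red, the 900 that were lower are blue and the other genes grey; Hand1 is the highest of the labelled genes, and Foxa2, Foxb1 and Lefty1 are the lowest.

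The genes with the largest rises among those at 10 CPM or more were led by Hand1, a basic helix-loop-helix factor needed for trophoblast giant cells and for the heart (chr11:57828705-57832818). Hand1 stood at 244, 208 and 188 CPM in ABSC 1 to 3, at 2.53, 1.88 and 1.83 CPM in ALSC 1 to 3 and at 0.155, 0.189 and 0.376 CPM in AFSC 1 to 3. Every ABSC library was far above every ALSC library, and ALSC lay above AFSC (change on the log2 scale 6.67 with SE 0.17, edgeR adjusted p = 2.99e-08, ABSC against ALSC). As in any bulk sample, fewer cells with a transcript and less of it per cell cannot be told apart. Evx1, a homeobox factor of the posterior primitive streak, stood at 24.9, 60.98 and 61.3 CPM in ABSC and 1.38, 0.835 and 1.12 CPM in ALSC, so that ABSC 1 held less of it than the other ABSC libraries (change on the log2 scale 5.45 with SE 0.38, edgeR adjusted p = 2.53e-05). Its antisense neighbour Evx1os rose with it (4.77), and since the library kit does not mark the strand, the reads of this pair cannot be told apart. Tmod1, which caps the pointed ends of actin filaments and overlaps Tstd2, lay at 40.8, 39.4 and 37.3 CPM in ABSC and 2.57, 2.30 and 1.53 CPM in ALSC (change on the log2 scale 4.19 with SE 0.17, edgeR adjusted p = 8.34e-07). Also in this group were Stk32a (3.55), a kinase gene, Klhl4 (3.16), of the kelch-like family, and the uncharacterised A930004D18Rik (4.01). Klhl4 lay at 29.4 ± 1.67 CPM in ABSC, 3.30 ± 0.917 CPM in ALSC and 17.1 ± 2.08 CPM in AFSC, so ALSC was the lowest of the cell types. A930004D18Rik averaged 11.04 CPM in ABSC, 0.677 CPM in ALSC and 7.48 CPM in AFSC, so ALSC was again the lowest.

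The largest falls among genes at 10 CPM or more were led by factors of the anterior streak and endoderm. Foxa2, a forkhead pioneer factor of endoderm and notochord (chr2:148042877-148046969), stood at 0.147, 0.418 and 0.354 CPM in ABSC and at 20.4, 14.6 and 16.6 CPM in ALSC, with no overlap (change on the log2 scale -5.79 with SE 0.27, edgeR adjusted p = 1.51e-06). Lhx1, a LIM homeobox factor of the anterior streak (-5.79), Gsc, the homeobox gene goosecoid of the organizer (-4.40), and Foxb1, a forkhead factor of the neural plate (-5.20; it overlaps B230323A14Rik), fell as well. Lhx1 stood at 28.5, 7.52 and 9.78 CPM in ALSC and 0.295, 0.209 and 0.304 CPM in ABSC, and its fall was -4.96 without ALSC 1, the highest library, while that of Foxb1 was -5.999 without ABSC 3. Fgf5, a ligand of the epiblast after implantation, lay at 18.3, 13.5 and 17.1 CPM in ABSC, 119.8, 156 and 166 CPM in ALSC and 189, 184 and 193 CPM in AFSC (change on the log2 scale -3.17 with SE 0.14, edgeR adjusted p = 1.39e-06). ALSC thus lay near AFSC for Fgf5 and ABSC far below both. Slc39a4, a zinc importer, lay at 2.85, 2.14 and 1.92 CPM in ABSC and 28.2, 31.8 and 29.4 CPM in ALSC, with AFSC at 10.9 ± 0.442 CPM between them (change on the log2 scale -3.69 with SE 0.15, edgeR adjusted p = 8.34e-07). Upp1, a uridine phosphorylase, stood at 38.1, 29.8 and 28.99 CPM in ABSC, 277, 203 and 199 CPM in ALSC and 55.3 ± 7.30 CPM in AFSC (change on the log2 scale -2.81 with SE 0.16, edgeR adjusted p = 7.96e-06). For Slc39a4 and Upp1 the ALSC libraries held the highest level of the 3 cell types. Glyatl3, of the glycine acyltransferase family, fell by 3.12 on the log2 scale, from 11.7 ± 5.96 to 1.34 ± 0.360 CPM.

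**Figure D2:**
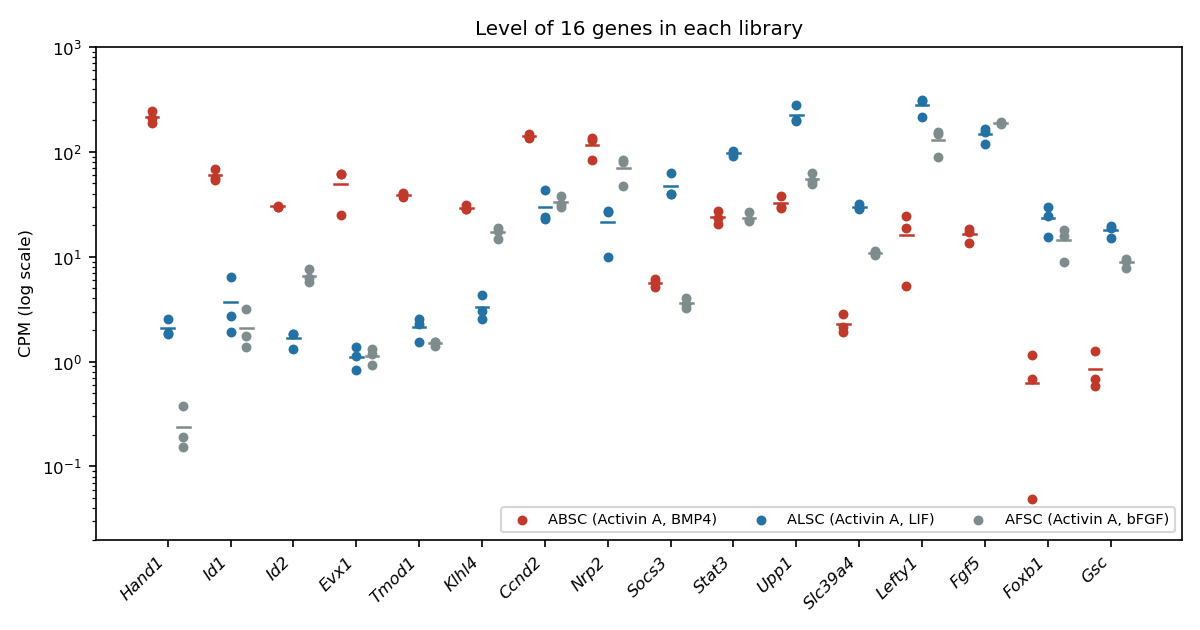
CPM (log axis) of 16 genes in each library, with ABSC in red, ALSC in blue and AFSC in grey; dots are libraries and bars are means of 3. Hand1 ran from 188 to 244 CPM in ABSC and from 1.83 to 2.53 CPM in ALSC, and Socs3 from 5.11 to 6.07 CPM in ABSC and from 39.8 to 63.3 CPM in ALSC.

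Measured by CPM instead of by fold, the largest gains belonged to abundant genes. They were Hsp90ab1, a cytosolic HSP90 chaperone (7080 ± 341 against 6021 ± 455 CPM), Hspa8, the constitutive HSP70 (3532 ± 63.2 against 2645 ± 152 CPM), Pabpc1, which binds poly(A) tails (2194 ± 36.95 against 1789 ± 69.1 CPM), Akap12, a kinase scaffold (722 ± 46.8 against 412 ± 34.2 CPM), and the pluripotency factor Pou5f1 (1226 ± 42.4 against 935 ± 30.6 CPM). Their log2 fold changes were small, from 0.23 for Hsp90ab1 to 0.81 for Akap12, and the call for Hsp90ab1 was lost without any of AFSC 2, AFSC 3, ABSC 2, ABSC 3, ALSC 1 or ALSC 3. The largest losses in CPM were those of Trh, the precursor of thyrotropin-releasing hormone, the noncoding RNAs Meg3 and Rian, Lefty1, and the kinase Pim2. Trh stood at 1298, 1390 and 1373 CPM in ABSC and 1908, 2846 and 2604 CPM in ALSC (change on the log2 scale -0.86 with SE 0.12, edgeR adjusted p = 0.00172), without overlap. Pim2 fell by 0.43 on the log2 scale, a call lost without any of AFSC 2, AFSC 3, ABSC 2, ABSC 3, ALSC 1, ALSC 2 or ALSC 3.

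Genes of the BMP response were the list with the highest share of calls: 8 of 11 tested members rose and 0 fell (median log2 change 1.73, against -0.01 over all genes). Id1 and Id2 encode inhibitors that pair with basic helix-loop-helix factors and keep them off DNA. Id1 stood at 68.4, 56.8 and 54.1 CPM in ABSC and 6.43, 1.93 and 2.75 CPM in ALSC, and Id2 at 30.6, 30.02 and 29.9 CPM in ABSC and 1.33, 1.83 and 1.83 CPM in ALSC. Both were separated without overlap (Id1: change on the log2 scale 3.99 with SE 0.39, edgeR adjusted p = 0.000235, and Id2: change on the log2 scale 4.18 with SE 0.17, edgeR adjusted p = 8.34e-07). Id2 averaged 6.54 CPM in AFSC, so ALSC lay below AFSC and ABSC above it. The homeobox genes Msx1 (3.06) and Msx2 (4.66) also rose, Msx1 from 1.56, 0.940 and 1.12 CPM in ALSC to 3.00, 12.6 and 15.03 CPM in ABSC, where ABSC 1 was again the lowest. The other rises were Gata2, Id4, Smad6 and Smad7. Id3 did not share the rise: it lay at 35.5, 48.6 and 42.1 CPM in ABSC and 26.6, 40.98 and 44.7 CPM in ALSC, overlapping ranges with an edgeR adjusted p of 0.644. Leaving out ABSC 2 left 6 of the 8 calls, and the replicate block gave 9. The rise of Id1 was 4.67 without ALSC 1, and that of Msx2 was 5.46 without ALSC 3.

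The promoters of Id2 and Socs3 are shown because these genes were among the largest changes of the BMP and LIF responses. The windows are the 250 bases before a start of transcription in RefSeq on GRCm38.p6, both from genes on the minus strand. The Ensembl models behind the counts reach farther 5′, from chr12:25093799-25097140 for Id2 and chr11:117966079-117970047 for Socs3, so both windows lie within those gene ranges. Capitals mark GGCGCC, a core bound by SMAD1 and SMAD5, and TTCNNNGAA, the core bound by STAT factors; both motifs read the same on either strand and do not overlap here. Id2 is chr12:25096093-25096342 and holds GGCGCC at position 20 from the window's 5′ end. Socs3 is chr11:117969367-117969616 and holds TTCNNNGAA at position 97 and GGCGCC at position 190.
Id2: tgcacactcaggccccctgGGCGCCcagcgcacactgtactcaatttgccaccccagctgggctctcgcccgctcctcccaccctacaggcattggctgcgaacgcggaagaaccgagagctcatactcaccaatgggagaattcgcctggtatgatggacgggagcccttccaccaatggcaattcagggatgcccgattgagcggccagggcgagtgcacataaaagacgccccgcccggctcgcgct
Socs3: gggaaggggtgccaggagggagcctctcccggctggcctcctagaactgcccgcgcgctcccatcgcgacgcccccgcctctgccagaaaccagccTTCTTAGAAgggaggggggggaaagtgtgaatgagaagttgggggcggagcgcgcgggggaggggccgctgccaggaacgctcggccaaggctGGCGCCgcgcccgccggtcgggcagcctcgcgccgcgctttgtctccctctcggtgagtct
Of 32851 RefSeq windows of this length, 2306 (7.02%) held TTCNNNGAA and 3149 (9.59%) held GGCGCC. A match of letters describes the sequence and does not show that a factor bound there.

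The LIF response did not move as a block. Of 16 tested members 4 rose and 4 fell (25.0% each, against 5.41% and 5.56% of all genes), and 8 members were not called. The median log2 change was -0.05. Socs3, the feedback inhibitor of the LIF receptor, stood at 5.11, 6.07 and 5.77 CPM in ABSC, 63.3, 39.8 and 39.99 CPM in ALSC and 4.07, 3.21 and 3.52 CPM in AFSC (change on the log2 scale -3.08 with SE 0.20, edgeR adjusted p = 1.42e-05). Stat3 itself, whose gene overlaps Stat5a, lay at 27.3, 23.4 and 20.4 CPM in ABSC, 101, 97.2 and 91.3 CPM in ALSC and 26.6, 21.7 and 22.5 CPM in AFSC (change on the log2 scale -2.03 with SE 0.12, edgeR adjusted p = 7.67e-06). For both genes ALSC stood above both other cell types, and ABSC lay close to AFSC. Bcl3, an atypical IkappaB protein (-2.50), and Tfcp2l1, a factor of naive pluripotency (-2.07; 25.9 ± 3.92 against 109 ± 36.5 CPM), fell with them. The 4 members that rose were the kinases Pim1 (1.04) and Pim3 (0.59), the mRNA decay factor Zfp36 (0.65) and the LIF receptor gene Lifr (0.92), which averaged 49.98 CPM in ABSC and 26.48 CPM in ALSC.

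Among ligands of the TGF-beta superfamily and their secreted inhibitors, 2 of 25 tested members rose and 7 fell. These shares, 8.0% and 28.0%, stand against 5.41% and 5.56% of all genes. The falls included Lefty1 and Lefty2, the Nodal inhibitors that Nodal itself induces, Cer1, an inhibitor of Nodal, BMP and WNT, Chrd, the BMP antagonist chordin, and the ligands Bmp2 and Bmp7. Lefty1 stood at 5.21, 18.6 and 24.4 CPM in ABSC and 215, 312 and 304 CPM in ALSC (change on the log2 scale -4.11 with SE 0.47, edgeR adjusted p = 0.000793), and ABSC 1 and ALSC 1 were each the lowest of their group. Cer1 lay at 0, 0.0523 and 0.101 CPM in ABSC, 3 counts in all, and at 11.8, 5.33 and 4.13 CPM in ALSC, so no fold is given. Chrd, which overlaps Thpo, fell by 2.97 and Bmp2 by 2.80 on the log2 scale. Bmper, which binds BMPs, and Inhba, the subunit of Activin A, were the 2 that rose (2.80 and 1.85). Of 14 tested receptors and co-receptors 0 rose and 2 fell (14.3% called, against 11% of all genes). Both were co-receptors: Tgfbr3 (-1.51) and Rgma (-1.22, a call lost without any of AFSC 2, AFSC 3, ABSC 2, ALSC 2 or ALSC 3).

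Among feedback genes of FGF and ERK signalling 4 of 19 tested members rose in ABSC and 0 fell (21.1% higher against 5.41% of all genes; median 0.13), and the recipes of both media list no bFGF. With the replicate block 7 rose and 4 fell, and without the libraries numbered 1 the list was even, with 7 higher and 7 lower and a median of 0. Dusp6, the phosphatase that removes phosphate from ERK, stood at 288, 328 and 291 CPM in ABSC, 216, 232 and 212 CPM in ALSC and 361, 323 and 331 CPM in AFSC (change on the log2 scale 0.46 with SE 0.07, edgeR adjusted p = 0.00286). Phlda1 (2.25), a pleckstrin homology domain gene, Dusp5 (1.14), a nuclear ERK phosphatase, and Myc (1.01) rose as well. Myc averaged 113.8 CPM in ABSC, 56.54 CPM in ALSC and 108.8 CPM in AFSC, so ABSC lay near AFSC and ALSC below both. In each of these 4 genes the 3 ABSC libraries lay above the 3 ALSC libraries, as they did in 13.9% of all genes tested.

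In the WNT pathway 1 of 37 tested members rose and 6 fell (2.70% and 16.2%, against 5.41% and 5.56% of all genes; median -0.17), and 5 rose and 12 fell with the block. Dkk1, a secreted WNT inhibitor (-3.80), the ligand Wnt8a (-2.13) and the receptor Fzd8 (-1.16) fell, and the value for Dkk1 was -4.62 without ABSC 3. Wnt8a stood at 10.6, 24.00 and 32.2 CPM in ABSC and 66.4, 112 and 114 CPM in ALSC, with the libraries numbered 1 lowest in both. Wnt5a, a ligand of the noncanonical branch, rose (1.49), a call lost without any of ABSC 2, ABSC 3, ALSC 1 or ALSC 3. Of 17 tested hedgehog and retinoid genes 1 rose and 4 fell (29.4% called, against 11% of all genes). The transcriptional effectors Gli1 (-1.98; it overlaps Arhgap9) and Gli2 (-1.25) and the retinaldehyde dehydrogenase Aldh1a2 (-1.72) were among the falls, while Gli3, which can act as a repressor, rose (0.81). The call for Gli2 was lost without any of AFSC 2, AFSC 3, ABSC 1, ABSC 2, ABSC 3, ALSC 2 or ALSC 3. Of 16 Notch pathway genes 0 rose and 2 fell, 12.5% called and so close to the share over all genes: the ligand Dll3 (-1.60) and the fringe enzyme Mfng (-1.42, lost without any of AFSC 2, AFSC 3, ABSC 2, ABSC 3 or ALSC 1).

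Of 28 tested genes of the interferon response and antigen presentation 0 rose and 7 fell in ABSC (25.0% lower against 5.56% of all genes), and 21 were not called. The median was -0.45, or -0.24 without the libraries numbered 1, where 1 was higher and 10 lower. The block gave 1 higher and 12 lower. Oas1a, a sensor of double-stranded RNA, lay at 1.08, 1.62 and 1.47 CPM in ABSC, 7.17, 4.80 and 3.92 CPM in ALSC and 2.22, 1.98 and 1.78 CPM in AFSC (change on the log2 scale -1.93 with SE 0.28, edgeR adjusted p = 0.00186). The membrane protein Bst2 (-1.20), the RNA sensor Ddx58 (-1.11) and the immunoproteasome subunit Psmb9 (-0.81; it overlaps Tap1) also fell. For Oas1a and Bst2 the ALSC libraries were above both other cell types. Among chemokines, cytokines and their receptors 6 of 57 rose and 4 fell (17.5% called, against 11% of all genes), or 6 and 7 with the block. Cxcl12 stood at 112, 111 and 137 CPM in ABSC and 27.8, 38.95 and 46.8 CPM in ALSC (change on the log2 scale 1.67 with SE 0.17, edgeR adjusted p = 0.000271), while its scavenging receptor Ackr3 fell (-1.85). Il33, a nuclear cytokine, rose (2.58), and Aplnr, the apelin receptor, fell (-2.07).

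Actin, myosin and other targets of serum response factor formed the list with the next highest share of calls after the BMP response. Of 37 tested members 18 rose and 2 fell (48.6% higher against 5.41% of all genes; median 0.32), and the block gave 21 and 4. Most of these rises were below 2-fold: besides Tmod1 and Acta2, the smooth muscle actin, they ran from 0.19 for the myosin light chain Myl6 to 1.36 for caldesmon, Cald1. Acta2 rose from 0.689, 0.418 and 0.357 CPM in ALSC to 1.82, 1.83 and 1.37 CPM in ABSC, and its call was lost without any of ABSC 2, ALSC 2 or ALSC 3. The 2 that fell, the atrial light chain Myl7 (-4.24, and -4.86 without ABSC 2) and the kinase Mylk (-1.40, lost without any of ABSC 2, ABSC 3, ALSC 1 or ALSC 3), were scarce, at or below 2.34 ± 0.605 CPM on average in ALSC. Calls held in every fit that left out 1 library for 10 higher members and 1 lower member, and leaving out ABSC 2 gave 10 and 1 as well. Of 17 YAP and TEAD response genes 1 rose and 1 fell (11.8% called, near the 11% of all genes), and 8 and 1 with the block. Ctgf, a matrix protein often used as a readout of YAP, fell (change on the log2 scale -1.21 with SE 0.14, edgeR adjusted p = 0.000496), whereas the transcription factor Tead4 rose (1.06, lost without any of ABSC 1, ABSC 2, ALSC 2 or ALSC 3).

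Of 29 tested keratins and epithelial factors 8 rose in ABSC, all of them in every fit that left out 1 library, 1 fell and 20 were not called (27.6% higher and 3.45% lower, against 5.41% and 5.56% of all genes). Krt8, a simple epithelial keratin, stood at 132, 173 and 163 CPM in ABSC and 76.4, 62.5 and 63.4 CPM in ALSC (change on the log2 scale 1.21 with SE 0.12, edgeR adjusted p = 0.000185). Grhl2, a grainyhead factor that activates epithelial genes, lay at 80.1, 92.04 and 91.6 CPM in ABSC and 31.2, 38.2 and 35.97 CPM in ALSC (change on the log2 scale 1.32 with SE 0.09, edgeR adjusted p = 1.76e-05), and Rab25, a GTPase of epithelial recycling, rose by 1.08. The groups did not overlap for any of these 3 genes, with ABSC above, as in 13.9% of all genes tested. Rab25 averaged 27.9 CPM in ABSC, 13.15 CPM in ALSC and 24.86 CPM in AFSC, so ABSC lay near AFSC and ALSC below both. Krt7 fell (-1.57, lost without ABSC 2). Of 24 tight junction genes 4 rose and 3 fell (29.2% called, against 11% of all genes), and with the block 13 and 4. Occludin, Ocln (1.07), and Cldn4 (0.64, lost without any of ABSC 2, ABSC 3, ALSC 1, ALSC 2 or ALSC 3) were higher, and Cldn3 (-1.61, lost without ABSC 2 or ABSC 3) lower. Among 13 regulators of the epithelial to mesenchymal transition 2 rose and 3 fell (38.5% called, against 11% of all genes). The repressors Zeb1 (-1.44) and Zeb2 (-1.74) and the cadherin Cdh2 (-0.82) fell. The filament gene Vim, by contrast, rose (0.53, lost without ABSC 2 or ABSC 3), as did Msn, which links actin to the membrane.

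Matrix and adhesion genes moved in both directions. Of 93 collagens, laminins and other matrix genes 13 rose and 16 fell (31.2% called, against 11% of all genes). The block gave 20 and 25, and 29 and 28 were called without the libraries numbered 1. Thbs1, the adhesive glycoprotein thrombospondin, rose from 11.6, 10.7 and 9.43 CPM in ALSC to 27.9, 53.1 and 49.5 CPM in ABSC (change on the log2 scale 2.04 with SE 0.22, edgeR adjusted p = 0.000357), and the minor fibrillar collagen Col11a1 (-3.13) and the transmembrane collagen Col23a1 (-1.93) fell. Leaving out ABSC 2 left 7 higher and 8 lower matrix calls. Among 20 integrin genes 5 rose and 5 fell. Itga3, which pairs with Itgb1 as a laminin receptor, stood at 92.4, 105 and 89.1 CPM in ABSC and 45.4, 46.9 and 38.1 CPM in ALSC (change on the log2 scale 1.13 with SE 0.12, edgeR adjusted p = 0.000313). Itga2, a collagen receptor, rose (1.98, lost without any of ABSC 2, ABSC 3, ALSC 1, ALSC 2 or ALSC 3), and Itga8 (-1.40) and Itgb7 (-1.14) fell, calls lost without ABSC 2 (Itga8 also without ALSC 1, Itgb7 also without ABSC 3). Of 56 cadherins and protocadherins 2 rose and 8 fell (17.9% called against 11% of all genes, median -0.47), or 5 and 19 with the block. Cdh13, a cadherin anchored by a lipid, fell by 3.03, Pcdhb16 by 2.79 (its value was -2.20 without ABSC 1) and Pcdhb17 by 2.15 (the last lost without any of ABSC 2, ABSC 3 or ALSC 3). Pcdh19 rose (2.66), from 1.61 ± 0.663 to 10.2 ± 3.56 CPM.

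Guidance molecules split evenly, with 10 of 61 higher and 10 lower (32.8% called, against 11% of all genes). The pair of neuropilins, co-receptors for semaphorins and VEGF, moved in opposite directions. Nrp2, which overlaps Gm37121, stood at 84.5, 131 and 135 CPM in ABSC, 9.88, 27.5 and 26.5 CPM in ALSC and 46.9, 84.1 and 79.5 CPM in AFSC (change on the log2 scale 2.46 with SE 0.38, edgeR adjusted p = 0.00381), so ALSC was the lowest. Nrp1 was scarce and fell (-1.85, lost without any of ABSC 1, ABSC 2, ABSC 3, ALSC 2 or ALSC 3). The attractant netrin, Ntn1, fell by 2.30 on the log2 scale, and its receptor gene Unc5c, at 3 counts in all in ALSC, stood at 0.982, 1.25 and 1.67 CPM in ABSC.

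Of 64 homeobox genes tested 14 rose and 8 fell (34.4% called, against 11% of all genes), and the calls held in every fit that left out 1 library for 10 and 8. Beside Evx1, Msx1 and Msx2, Cdx2, a regulator of trophectoderm and posterior axis, was among the rises, at 0.835, 6.43 and 6.07 CPM in ABSC and 0, 0.104 and 0.153 CPM in ALSC (change on the log2 scale 5.64 with SE 0.99, edgeR adjusted p = 0.00615). ABSC 1 was thus well below the other 2 ABSC libraries. The value for Cdx2 was 5.04 without ALSC 1 and 6.33 without ALSC 3. Cdx2 averaged 0.086 CPM in ALSC, a level under 3 counts per library, so depth limits its fold. Of 50 forkhead, SOX, GATA and T-box factors 5 rose and 10 fell (30.0% called). With the block 12 rose and 15 fell, but 17 rose and 13 fell without the libraries numbered 1. Sox17, an endoderm factor, fell from 3.81, 3.29 and 3.01 CPM in ALSC to 0, 0.262 and 0.101 CPM in ABSC (change on the log2 scale -4.76 with SE 0.64, edgeR adjusted p = 0.00135; -5.91 without ABSC 2), and the cardiac factor Tbx20 rose (3.32). Depth limits the fold of Sox17 too, since it averaged 0.121 CPM in ABSC. Of 56 basic helix-loop-helix factors 9 rose and 5 fell (25.0% called), or 7 and 7 with library size alone. Among the falls was Tfeb, the master regulator of lysosome genes (change on the log2 scale -2.62 with SE 0.21, edgeR adjusted p = 5.41e-05).

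Among 28 nuclear receptors 2 rose and 0 fell (7.14% called, against 11% of all genes). Nr5a2, a receptor that binds regulatory DNA of Pou5f1, stood at 9.43, 6.75 and 7.89 CPM in ABSC and 0.322, 0.157 and 0.459 CPM in ALSC (change on the log2 scale 4.65 with SE 0.31, edgeR adjusted p = 1.76e-05), and Nr6a1, the germ cell nuclear factor, rose by 0.54. Of 64 KLF, SP, AP-1, ETS and EGR factors 6 rose and 2 fell (12.5% called), and 16 and 10 with the block. Sp8, a zinc finger factor of limb and brain, lay at 8.55, 24.1 and 23.1 CPM in ABSC and 1.38, 2.71 and 3.16 CPM in ALSC (change on the log2 scale 2.95 with SE 0.43, edgeR adjusted p = 0.00229). Klf3, a repressor (1.65), and Klf6 (0.77) rose too. The large family of genes named Zfp changed less: 8 of 363 rose and 8 fell (4.41% called, against 11% of all genes), or 28 and 44 with the block.

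**Figure D3:**
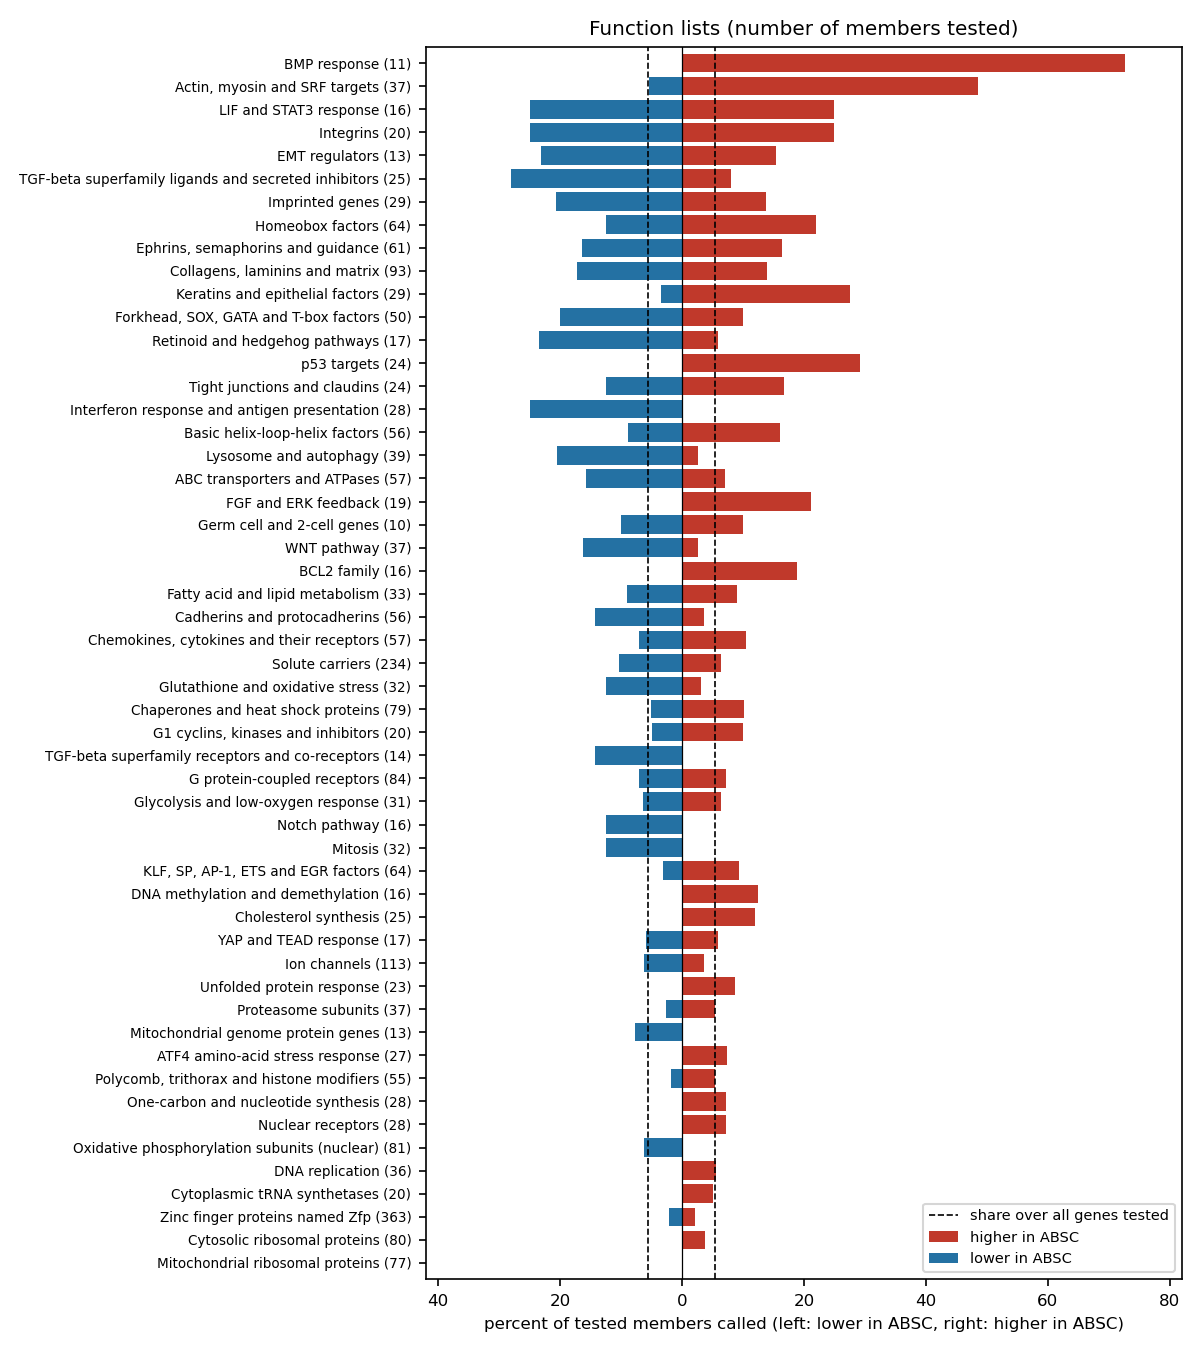
Percent of the tested members of each function list that were called higher (red, to the right) or lower (blue, to the left) in ABSC, with the number of members tested in brackets; dashed lines mark the shares over all genes, 5.41% and 5.56%. The BMP response and the actin list extend farthest to the right, with 72.7% and 48.6% of members higher, and the ligands and inhibitors of the TGF-beta superfamily farthest to the left, with 28.0% lower.

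Most lists of basic cell machinery changed little by the test without a block. Several gained calls with the block, as did all genes tested, of which 28.5% were then called (14.2% higher, 14.3% lower). Against 11% of all genes, calls were made for 3.75% of cytosolic ribosomal protein genes and 6.17% of nuclear oxidative phosphorylation genes. The shares were 8.11% for proteasome genes, 5.56% for DNA replication and 7.41% for the amino-acid stress response. They were 15.2% for chaperones, 12.5% for mitosis genes and 18.8% for the BCL2 family. Of 80 cytosolic ribosomal protein genes 3 rose and 0 fell (median 0.06), and 10 and 0 with the block; with library size alone the median was -0.01 and 0 were called. Of 77 mitochondrial ribosomal protein genes 0 were called, and 4 rose and 2 fell with the block. Nuclear genes for subunits of oxidative phosphorylation ran slightly lower: 0 of 81 rose and 5 fell (median -0.12), and the block gave 1 higher and 28 lower. Single changes were small, as for Uqcrh (-0.26), Cox6c (-0.25) and Atp5o (-0.24), and all 5 calls were lost in at least 1 fit that left out a library. The 13 protein genes of the mitochondrial genome had a median of -0.31, which became 0.05 without the libraries numbered 1.

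Glycolysis and the response to low oxygen had a median of -0.35 over 31 genes, with 2 higher and 2 lower (12.9% called, near the 11% of all genes). With the block 3 were higher and 18 lower. Without the libraries numbered 1 the counts were 5 and 17 and the median -0.30. Pdk1, which restrains pyruvate oxidation, stood at 125, 127 and 109.7 CPM in ABSC and 177, 163 and 158 CPM in ALSC (change on the log2 scale -0.46 with SE 0.07, edgeR adjusted p = 0.00266), and Slc16a3, a lactate exporter, fell (-0.41). Hk2, a hexokinase, rose (0.36, lost without any of AFSC 2, AFSC 3, ABSC 1, ABSC 2, ABSC 3, ALSC 2 or ALSC 3), and so did the phosphofructokinase Pfkm (0.42; it overlaps Senp1). Hk2 was highest in the library numbered 1 of every group. Genes of cholesterol synthesis had 3 of 25 higher and 0 lower (median 0.25), but 17 and 2 with the block and 20 and 2 without the libraries numbered 1. Scaling by library size alone gave 0 higher and 1 lower. The regulator Srebf2 (0.22), Pmvk (0.30) and Mvd (0.40), both enzymes of the mevalonate route, were called, and each call was lost in at least 3 fits that left out 1 library, those without ABSC 2, ABSC 3 and ALSC 3 among them. Of 33 fatty acid and lipid genes 3 rose and 3 fell (18.2% called), led by the elongase Elovl7 (1.02).

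Among genes of glutathione and oxidative stress 1 of 32 rose and 4 fell (15.6% called, against 11% of all genes), or 8 and 7 with the block. Mgst1, a microsomal glutathione transferase, stood at 0.295, 0.366 and 0.557 CPM in ABSC and 3.31, 3.24 and 2.96 CPM in ALSC (change on the log2 scale -2.95 with SE 0.35, edgeR adjusted p = 0.000652), and the peroxidases Gpx2 (-2.08; it overlaps Fntb) and Gpx3 (-2.16) fell with it. Prdx6, a peroxiredoxin, rose (0.62; 383 ± 30.6 against 249.7 ± 25.4 CPM). Of 39 lysosome and autophagy genes 1 rose and 8 fell (20.5% lower against 5.56% of all genes; median -0.14). Tfeb, described above as a factor, was one of them, at 2.75, 1.57 and 2.02 CPM in ABSC, 14.8, 12.4 and 12.02 CPM in ALSC and 1.65, 1.47 and 1.46 CPM in AFSC, so ALSC stood above both others. The enzyme Hexa (-1.09) also fell, while Glb1 (-0.56; it overlaps Tmppe) was lost without ABSC 2 or ABSC 3 and Mitf (-1.21) without any of AFSC 2, ABSC 2, ABSC 3, ALSC 1 or ALSC 2. Leaving out ABSC 2 left 0 higher and 3 lower.

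Chaperones had 8 of 79 members higher and 4 lower, and 22 and 6 with the block, but 2 and 4 with library size alone and 2 and 2 without ABSC 2. The rises included Hspa8 and Hsp90ab1, and 3 of the 4 falls were J-domain genes, among them Dnajc6 (-1.05), a cofactor of clathrin uncoating. Of 37 proteasome genes 2 rose and 1 fell, 10 and 1 with the block and 0 and 1 with library size alone, the fall being Psmb9. Of 27 genes of the amino-acid stress response through ATF4 2 rose and 0 fell: Cth, which makes cysteine (change on the log2 scale 0.93 with SE 0.09, edgeR adjusted p = 0.000185), and Sesn2 (0.33). Without the libraries numbered 1 that list gave 12 and 7. Of 24 p53 target genes 7 rose and 0 fell (29.2% called against 11% of all genes, median 0.21), and 12 and 1 with the block. The rises were small, from 0.32 for Phlda3 to 0.46 for Mdm2, the ligase that marks p53 for degradation, and Trp53 itself rose by 0.44. The calls for Mdm2 and Trp53 were each lost without ABSC 2, ABSC 3, ALSC 3 and other libraries. Leaving out ABSC 2 left 2 of the 7, and both of these, Sesn2 and the death receptor Tnfrsf10b (0.39), held in every such fit. In the BCL2 family 3 of 16 rose and 0 fell (18.8% called, against 11% of all genes). The rises were the survival factors Bcl2l2 (change on the log2 scale 1.02 with SE 0.19, edgeR adjusted p = 0.00708) and Bcl2l1 (0.30, lost without any of AFSC 2, AFSC 3, ABSC 2, ABSC 3, ALSC 1, ALSC 2 or ALSC 3), and the killer Bax (0.37, lost without ABSC 2 or ABSC 3).

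Cell cycle genes showed 1 large change. Ccnd2, a D-type cyclin that drives cells out of G1, stood at 149, 139 and 136 CPM in ABSC, 43.3, 22.7 and 23.8 CPM in ALSC and 38.2, 31.6 and 29.9 CPM in AFSC (change on the log2 scale 2.24 with SE 0.22, edgeR adjusted p = 0.00024). ABSC was thus above both other cell types in every library. Of 20 G1 genes 2 rose and 1 fell (15.0% called, against 11% of all genes). The inhibitor Cdkn2b rose with Ccnd2 (1.29), and the inhibitor Cdkn1c fell (-0.94). The call for Cdkn1c was lost without any ABSC library and with the replicate block (-0.91, edgeR adjusted p = 0.0907), and ALSC 1 held 70.4 CPM against 34.8 and 38.6 CPM in the other ALSC libraries. Of 32 mitosis genes 0 rose and 4 fell (median -0.04), and 2 and 10 with the block. They were Top2a (-0.23), Cenpf (-0.33), Ccnb2 (-0.35) and Cdc25b (-0.45), and each call was lost without ABSC 2. Of 36 DNA replication genes 2 rose and 0 fell, and 14 and 1 with the block.

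Chromatin genes changed in a few members. Calls were made for 12.5% of DNA methylation genes and 7.27% of polycomb, trithorax and histone modifiers, against 11% of all genes. Tet3, which oxidises methylated cytosine, stood at 53.7, 48.1 and 49.9 CPM in ABSC and 14.4, 20.7 and 19.1 CPM in ALSC (change on the log2 scale 1.49 with SE 0.14, edgeR adjusted p = 0.000185), and was 1 of 2 higher among 16 DNA methylation genes, with 0 lower (4 and 4 without the libraries numbered 1). Of 55 polycomb, trithorax and histone modifiers 3 rose and 1 fell, 16 and 4 with the block and 3 and 3 with library size alone. All 3 rises were polycomb ring finger genes: Bmi1 (0.95), Pcgf5 (0.82) and Pcgf3 (0.33). Phf19, which helps bring polycomb complex 2 to its targets, fell (change on the log2 scale -0.87 with SE 0.10, edgeR adjusted p = 0.000563). Of 29 imprinted genes 4 rose and 6 fell (34.5% called, against 11% of all genes). The counts were 1 and 7 with library size alone and 9 and 8 without the libraries numbered 1. Plagl1, a zinc finger factor, rose from 7.26, 11.02 and 9.53 CPM in ALSC to 18.3, 39.1 and 36.7 CPM in ABSC (change on the log2 scale 1.76 with SE 0.27, edgeR adjusted p = 0.00266). Nnat, which overlaps Blcap, fell (change on the log2 scale -2.21 with SE 0.17, edgeR adjusted p = 4.75e-05). The maternally expressed RNAs of one locus on chromosome 12, Meg3 (370.0, 348 and 382 CPM in ABSC and 664, 631 and 638 CPM in ALSC; -0.81), Rian (-0.65) and Mirg (-0.54), fell together, whereas the paternally expressed Dlk1 of that locus rose (0.58).

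Among genes for transport across membranes, of 234 solute carriers 15 rose and 24 fell (6.41% and 10.3%, against 5.41% and 5.56% of all genes), and 33 and 57 with the block. Besides Slc39a4, Slc27a2, a fatty acid transporter, fell from 12.8, 23.3 and 24.4 CPM in ALSC to 3.83, 3.29 and 4.35 CPM in ABSC (change on the log2 scale -2.39 with SE 0.25, edgeR adjusted p = 0.000289), and the sodium and proton exchanger Slc9a2 rose (3.50). Among 57 ABC transporters and ATPases 4 rose and 9 fell (22.8% called, against 11% of all genes). Without ABSC 2 the counts were 1 and 5, and without the libraries numbered 1 they were 15 and 14. Atp1b1, a beta subunit of the sodium pump that overlaps Nme7, stood at 62.9, 63.4 and 60.2 CPM in ABSC and 17.3, 16.8 and 18.8 CPM in ALSC (change on the log2 scale 1.82 with SE 0.10, edgeR adjusted p = 5.77e-06), without overlap. Of 113 ion channel genes 4 rose and 7 fell (9.73% called, near the 11% of all genes), with Cacnb3, a calcium channel subunit (1.23), among the rises. Of 84 G protein-coupled receptors and related receptors 6 rose and 6 fell (14.3% called): the thrombin receptor F2r lay at 90.4, 103 and 94.9 CPM in ABSC and 35.7, 41.1 and 40.5 CPM in ALSC (change on the log2 scale 1.30 with SE 0.08, edgeR adjusted p = 1.18e-05), and the serotonin receptor Htr7 rose (1.98).

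Germ cell genes had 1 of 10 higher and 1 lower (20.0% called, against 11% of all genes). Kit, a receptor kinase of germ and stem cells, stood at 27.6, 21.3 and 24.1 CPM in ABSC and 67.5, 83.8 and 85.03 CPM in ALSC (change on the log2 scale -1.69 with SE 0.13, edgeR adjusted p = 3.95e-05), and Dppa3 lay at 1.89 ± 0.187 CPM in ABSC and 0.772 ± 0.272 CPM in ALSC (1.28, lost without any of AFSC 2, AFSC 3, ABSC 1, ABSC 2, ABSC 3, ALSC 1, ALSC 2 or ALSC 3), with 0 counts in all 3 AFSC libraries. Smaller lists of machinery gave few calls: 2 of 23 unfolded protein response genes, 2 of 28 genes of one-carbon and nucleotide synthesis (9 higher and 1 lower with the block) and 1 of 20 cytoplasmic tRNA synthetases (5 and 0 with the block) rose, and 0 in these lists fell. With library size alone the unfolded protein response and tRNA synthetase lists had 0 calls. In the main fit the shares called were 8.7% (unfolded protein response), 7.14% (one-carbon and nucleotide synthesis) and 5.0% (tRNA synthetases), against 11% of all genes.

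The labelled cell types were checked against their markers. These lists are short, and their counts of calls are to be read against 5.41% higher and 5.56% lower over all genes. All 9 epiblast markers were above 1 CPM in both groups, with summed levels of 3996 to 4207 CPM in ABSC and 4195 to 4388 CPM in ALSC. Of these 2 rose, Pou5f1 and Pou3f1 (0.88), and 3 fell, Nanog (-0.47), Otx2 (-0.35) and Fgf5. Nanog averaged 180.5 CPM in ABSC and 250.2 CPM in ALSC. Whether the calls of Pou3f1, Nanog and Otx2 held in fits that left out 1 library is not given here. The 12 trophoblast stem cell markers summed to 469 to 544 CPM in ABSC and 215 to 360 CPM in ALSC, with 10 above 1 CPM in ABSC and 9 in ALSC, and 3 of 10 tested rose. Hand1, which is on that list, supplied 188 to 244 CPM of the ABSC sums, whereas Elf5 averaged 0.0332 CPM and Gata3 0.750 CPM in ABSC and neither passed the filter on low counts. Eomes was not called, at 37.4, 150 and 162 CPM in ABSC and 53.25, 165 and 163 CPM in ALSC. The library numbered 1 was the lowest in both groups and also in AFSC (78.8, 136.5 and 150.6 CPM). Of 10 markers of differentiated trophoblast 6 had 0 counts in all ABSC libraries, and of the 3 tested Plet1 rose (1.74, lost without any of ABSC 2, ABSC 3, ALSC 2 or ALSC 3) and Krt7 fell. Of 6 mesoderm and endothelium markers and 3 neural ectoderm markers tested 0 were called; the first list summed to 29.7 to 49.1 CPM in ABSC and 36.2 to 41.6 CPM in ALSC, the other to 228 to 251 CPM and 224 to 306 CPM. Most of the first sum was Flt1 (on average 31.65 CPM in ABSC and 30.52 CPM in ALSC). Most of the other was Nes (221.9 and 232.1 CPM), while Sox1, Pax6, Neurog2 and Zic1 averaged at most 0.186 CPM in either group. The epiblast sums came mostly from Dnmt3b, Pou5f1 and Tdgf1, and Fgf5, an epiblast marker, was far lower in ABSC than in AFSC. Tfap2c (8.64 against 18.7 CPM) and Fgfr2 (6.855 against 13.6 CPM) averaged lower in ABSC than in ALSC but were not called. Esrrb, Ets2, Ascl2 and Sox2 were not called either. ABSC differed from ALSC in Hand1, Cdx2 and Tead4 (the last lost without any of ABSC 1, ABSC 2, ALSC 2 or ALSC 3) but held next to no Elf5, so the label of ABSC is met only in part. Foxa2 and Sox17 are themselves markers of primitive and visceral endoderm on the list used here, of which 5 of 8 tested fell and 0 rose: beside these, Gata4, Gata6 and Pdgfra fell, and each of these 3 calls was lost without ABSC 2 and at least 1 other library. Foxa2 alone supplied 14.6 to 20.4 CPM in ALSC, and the 12 markers summed to 7.79 to 9.94 CPM in ABSC and 33.3 to 44.9 CPM in ALSC, with Ttr at 0 in every library and Afp at 0 in every ALSC library. The part of these cells in the falls was not tested. Fibroblast markers summed to 14.7 to 22.3 CPM in ABSC and 17.9 to 34.6 CPM in ALSC, and blood markers to at most 1.98 CPM.

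The direction of the calls changed with the level of the gene. Genes were split by mean level into 10 groups of equal size. In the group with the lowest levels 20 rose and 77 fell (1.24% and 4.76%; median log2 change -0.20), while in the group with the highest levels 208 rose and 32 fell (12.9% and 1.98%; median 0.10). The medians ran upwards through nearly all groups in between, and without the libraries numbered 1 they were -0.20 in the lowest group and 0.09 in the highest. Counts for the function lists were set beside all genes tested and not beside genes of similar level. Among gene classes, of 840 processed pseudogenes, most of which copy abundant genes and may share their reads, 17 rose and 1 fell (2.14% called), and of 383 long intergenic noncoding RNAs 7 rose and 15 fell (5.74%), both below the 11% of all genes.

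**Figure D4:**
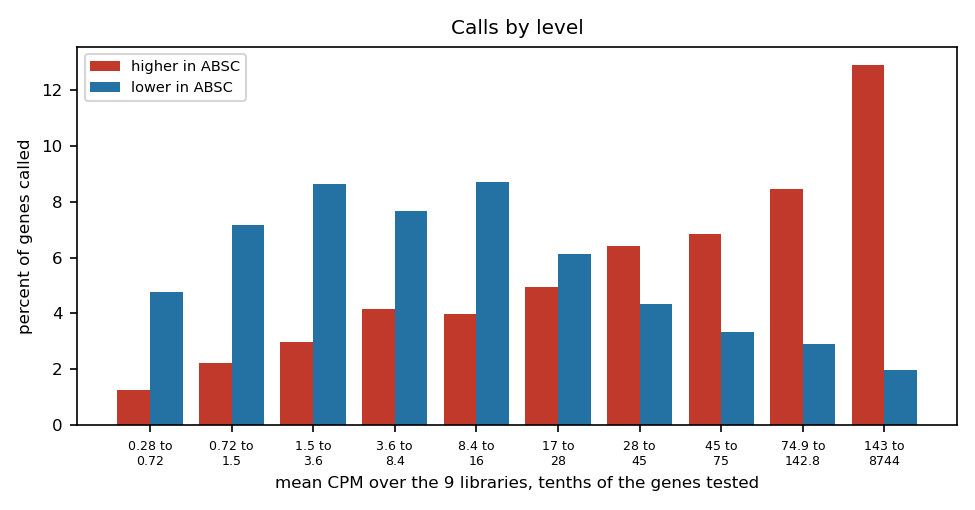
Percent of genes called higher (red) and lower (blue) in ABSC, in 10 equal groups of genes by mean CPM over the 9 libraries. In the lowest group 1.24% were higher and 4.76% lower, and in the highest 12.9% were higher and 1.98% lower.

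Genes on chromosomes 11 and 8 had the lowest medians of the nuclear chromosomes. On chromosome 11, 31 of 1243 tested genes rose and 86 fell (2.49% and 6.92%), with a median of -0.091, and on chromosome 8, 31 of 838 rose and 49 fell (3.70% and 5.85%), with a median of -0.076. Without the libraries numbered 1 the medians were -0.083 and -0.079, and in the fit of all libraries those of the other nuclear chromosomes lay between -0.028 and 0.045. Library by library, the genes of chromosome 11 at 5 CPM or more deviated from their mean over the 9 libraries by a median of 0.070, 0.060 and 0.041 (log2) in ALSC 1 to 3, -0.015, -0.022 and -0.034 in ABSC 1 to 3 and -0.022, -0.034 and -0.030 in AFSC 1 to 3. On chromosome 8 the deviations were 0.044, 0.040 and 0.027 in ALSC, -0.014, -0.034 and -0.044 in ABSC and 0.004, -0.004 and -0.015 in AFSC. On both chromosomes the 3 ALSC libraries stood above the 6 others. These 2 chromosomes were singled out after all 20 had been tabulated, and no test was made. Hand1, Socs3, Lhx1, Itga3, Ntn1 and Myl7 are among the named genes on chromosome 11. The part of this shift in the changes of single genes was not tested.

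**Figure D5:**
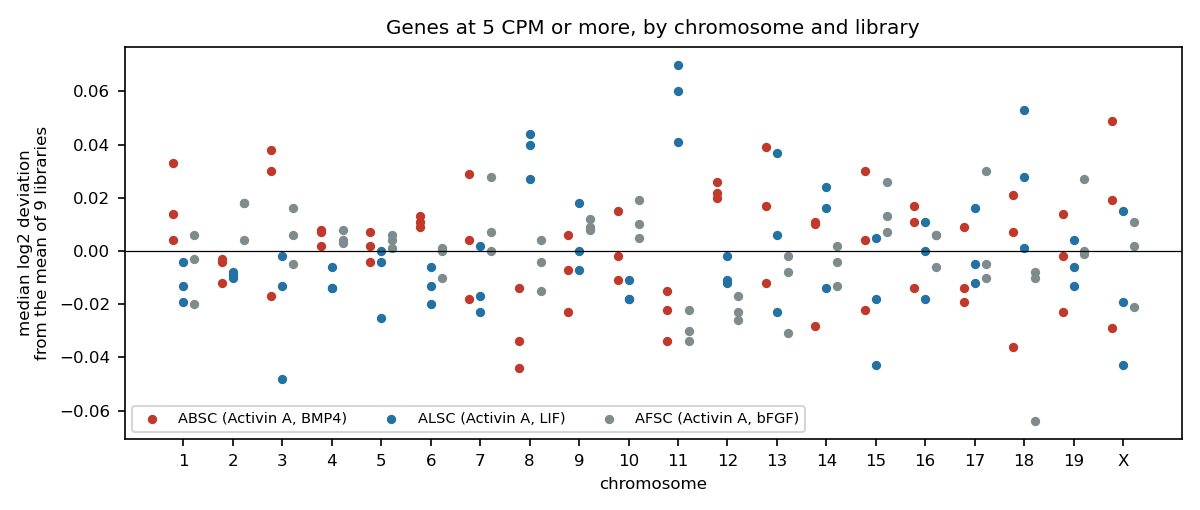
Median log2 deviation from the mean of the 9 libraries over genes at 5 CPM or more (pseudocount 0.5 CPM), for each chromosome and library, centred on each library's median; ABSC red, ALSC blue, AFSC grey. The ALSC libraries lie at 0.041 to 0.070 on chromosome 11 and at 0.027 to 0.044 on chromosome 8, above the 6 other libraries.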

How the data were processed

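The deposited table holds raw read counts per gene for 9 libraries, whole numbers with no normalization. The authors used HISAT2 2.0.5 and featureCounts 1.5.0-p3 and the build mm9, according to the submitters' processing notes. The table's own coordinates equal those of GRCm38 for 98.33% of the Ensembl IDs shared with GENCODE M21, so coordinates here are read as GRCm38. Per the labels' protocols, poly-T captured RNA went into an unstranded NEBNext Ultra kit, and the protocol and the series record name different HiSeq models. Of 54878 rows, the 346 without an Ensembl ID (0.208% to 0.227% of the counts) were left out of library sizes and tests.

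A single edgeR 4.0.16 fit (R 4.3.3) of all 9 libraries gave the tests, after filterByExpr (minimum count 10, total 15) and TMM scaling, with the robust 2-sided quasi-likelihood F test and 6 residual degrees of freedom. P-values were adjusted by Benjamini-Hochberg over all genes, and SE is the absolute log2 fold change over the square root of F. The fit was tested on simulated data. Alternatives were other scalings, filters and sets of libraries, DESeq2 1.42.0, and the library number as a block (4 residual degrees of freedom). The numbers come from the labels, which do not say what they mark. Deviations from the group means correlated at 0.197 to 0.554 between libraries of the same number, all over the 0.1 taken to show pairing. Numbers 2 and 3 also correlated with each other (0.221 to 0.273), and number 1 was apart from both (-0.426 to -0.304). Since deviations were centred within each group, numbers 2 and 3 deviate together once number 1 is apart. The rule thus cannot show that numbers 2 and 3 mark pairs. Without molecular identifiers in the reads, counting floors cover counting error and nothing else.

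Genes are named by a rule: 6 genes that check the media, from each list at most 4 called members, those that changed most at 1 CPM or more, the 10 largest rises and 10 largest falls at 10 CPM or more, and the 5 largest gains and 5 largest losses in CPM. It gave 189 genes, of which the text gives most; 38 overlap another tested gene, and where the text does not say so these include Grhl2, Cth, Srebf2, Nr6a1, Sesn2, Klf3, Rian, Top2a, Cdc25b, Uqcrh and Cox6c. The comparison, the lists and the rule were chosen with earlier results of these data known. Some named genes are not reported here.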

Additional observations from a re-analysis of the deposited data

Results flagged for a closer look

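Among the 346 loci without an Ensembl ID, which entered no test, 2 had more than 3 counts in all 3 ABSC libraries and at most 3 in every AFSC library. By the same criterion 1 such locus stood out in ALSC. These loci carry no symbol, and their counts were not compared between ABSC and ALSC.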

How the results depend on the processing

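Of 189 named genes only Id3, which was not called, changed direction, to -0.02 without ALSC 1, and 122 kept their side of the threshold in all of them. The count of 1775 called genes fell to 1041 (521 higher, 520 lower) with the 6 libraries only, where fewer samples estimate the spread. It rose to 4605 (2298 and 2307) with the replicate block, to 4489 (2237 and 2252) with the replicate block and the 6 libraries only, and to 5225 (2729 and 2496) without the 3 libraries numbered 1; beyond the separate position of those libraries the cause was not tested. A filter at a mean of 5 CPM, which tests fewer genes, gave 588 lower genes and 232 changes of at least 2-fold. Without the libraries numbered 1 there were 1034 such changes. Fits that left out 1 library gave 846 to 2337 called genes (439 to 1111 higher, 407 to 1226 lower) and 430 to 874 of at least 2-fold. The lowest were without ABSC 2 and the highest without ABSC 1; without ABSC 3 there were 958 called genes, and without ALSC 3 there were 573 higher genes. Of the named genes 62 lost their call without ABSC 2, 54 without ABSC 3, 49 with the 6 libraries only and 21 with library size alone. The replicate block ended 1 named call, that of Cdkn1c, and moved 74 of the 106 list counts by over 1.5 times. DESeq2 called 2347 genes and ended 0 named calls. Depth limits the fold of genes near or under 3 counts per library in a group, such as Cer1, Unc5c, Cdx2, Sox17, Myl7 and Msx2.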
